A study of Homo sapiens with 30 samples.

Results

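The small nucleolar and Cajal body RNAs of PANC-1 tumoroids are described here through the genes whose symbols start with SNORA, SNORD or SCARNA, together with RMRP, RPPH1 and RN7SK, where the mean expected count over 30 RNA-seq libraries was 5 or more. This rule kept 17 of the 553 records with such a name, out of 60483 records in each table. The 17 members were 2 box C/D small nucleolar RNAs (snoRNAs), 7 box H/ACA snoRNAs, 5 small Cajal body RNAs (scaRNAs), and RMRP, RPPH1 and RN7SK. Members were thus chosen by a measured value, the mean expected count over all 30 libraries, so their abundance is given as a description. PANC-1 is a human pancreatic ductal adenocarcinoma line of epithelial cells, grown here as tumoroids with or without droplet-supported lipid bilayers (DSLBs), synthetic cells made of an oil droplet under a lipid membrane. The 10 groups held 3 biological replicates each and shared the wild-type PANC-1 cells and the culture. They were tumoroids without DSLBs (DSLB-free), hybrid tumoroids with DSLBs that carried no protein (plain DSLB), hybrids whose DSLBs presented recombinant PD-1, and 7 kinds of hybrid with a second protein beside PD-1, which was TIGIT, LAG3, ICOS, CTLA4, CD40L, CD27 or CD2. The immune proteins sat on the synthetic cells only, and no immune cell was added.

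SnoRNAs guide the chemical modification of ribosomal RNA in the nucleolus, the box C/D class for ribose methylation and the box H/ACA class for pseudouridylation, and a few take part in cleavage of the ribosomal precursor. ScaRNAs carry the same boxes but gather in Cajal bodies, where they guide modification of the spliceosomal small nuclear RNAs. Most human guides are processed out of the introns of host genes and carry no poly(A) tail. RMRP is the RNA of RNase MRP, RPPH1 the RNA of RNase P, which trims transfer RNA precursors, and RN7SK holds the elongation factor P-TEFb in an inactive complex.

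The libraries held 21.9 M to 60.5 M expected counts (the median library 40.6 M), of which the members took 0.000746 to 0.00326%. A mean below 20 expected counts per library was found for 13 of the 17 members, so counting error alone sets wide limits. In bulk RNA, fewer cells of a type and less RNA per cell cannot be told apart. The epithelial markers KRT7, KRT8, KRT18, KRT19 and EPCAM summed to 4141 to 7435 CPM (expected counts relative to library size, on libraries scaled by the trimmed mean of M values) in every library. Leukocyte markers summed to 0.419 to 1.30 CPM, with CD3E at 0 in all 30 libraries. The mitochondrial share of counts was the lowest of its group in PD-1/LAG3 replicate 3 (1.71%), PD-1 replicate 1 (2.66%) and DSLB-free replicate 2 (3.19%), and results are given without these 3 libraries where that ended a call.

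The members were the longer RNAs of the family. They measured 130 to 701 nt, against a median of 95 nt for the records below the cutoff, 119 records were no longer than the read length of 75 nt, and 278 of the 553 records were at 0 in all 30 libraries. Length alone did not decide membership, since 181 records of at least 130 nt also stayed below the cutoff. Just above the cutoff lay SNORD15B, SNORA72 and SNORA71B, with mean expected counts of 5.93, 5.80 and 5.52. Just below it lay SNORA31, SNORD22 and SCARNA16, with 4.71, 4.32 and 4.09. No source used here states whether ribosomal RNA was removed or poly(A) RNA selected, and these levels say little about how much of each RNA the cells held.

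**Figure D1:**
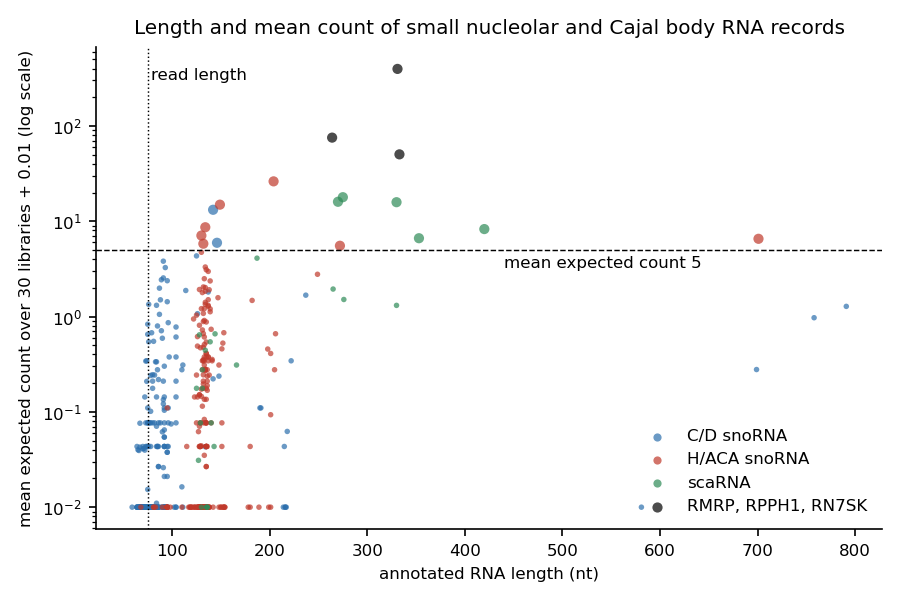
Annotated RNA length in nt (x axis) against the mean expected count over 30 libraries plus 0.01 on a log scale (y axis) for the 553 records, coloured by class, with members drawn larger. All 17 members lie at 130 nt or more, to the right of the read length of 75 nt, and RN7SK stands highest with a mean of 396.5.

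The sequences of 3 members are printed because the results below turn on them. They were read from hg38 with the annotated strand, 5′ to 3′, as DNA letters. Capitals mark a C box (ATGATGA or GTGATGA), a D box (CTGA, the last one within 20 bases of the end) or an ACA followed by 3 bases to the end, searched on the strand of the RNA only. SCARNA7 lay at chr3:160514907-160515236 on the minus strand, and SCARNA9 at chr11:93721513-93721865 and SNORA52 at chr11:811681-811814, both on the plus strand.
SCARNA7, bases 1 to 100: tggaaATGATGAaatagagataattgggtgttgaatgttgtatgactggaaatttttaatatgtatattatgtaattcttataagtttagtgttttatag
SCARNA7, bases 231 to 330: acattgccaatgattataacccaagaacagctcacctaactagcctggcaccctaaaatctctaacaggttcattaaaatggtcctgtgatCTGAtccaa
SCARNA9, bases 1 to 100: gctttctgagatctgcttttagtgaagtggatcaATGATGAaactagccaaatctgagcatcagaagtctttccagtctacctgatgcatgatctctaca
SCARNA9, bases 254 to 353: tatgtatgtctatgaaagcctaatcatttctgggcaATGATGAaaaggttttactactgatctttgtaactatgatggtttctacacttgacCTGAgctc
SNORA52: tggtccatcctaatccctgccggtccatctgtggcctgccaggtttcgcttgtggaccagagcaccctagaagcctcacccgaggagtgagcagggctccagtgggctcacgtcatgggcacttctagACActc
A C box in the first 20 bases together with a D box in the last 20 was found in 60.6% of the 312 box C/D records and in 0% of the 213 box H/ACA records. An ACA 3 bases from the end was found in 66.7% of the H/ACA records and in 1.60% of the C/D records. SCARNA7 held both C/D boxes in these windows, and SNORA52 held the ACA. SCARNA9 held 2 C boxes further in, starting at bases 35 and 290, and a D box near its end.

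Per transcript length (TPM), RN7SK was the most abundant member, with a mean of 54.3 TPM over the 30 libraries. RMRP followed at 14.5 TPM, then SNORA73B (U17b, which acts in cleavage of the ribosomal precursor) at 7.17, RPPH1 at 6.87 and SNORD97 at 6.70 TPM. The lowest was SNORA59B at 0.395 TPM. RN7SK alone made up 39.3 to 73.0% of the members' summed CPM in single libraries, with group means from 45.7% (PD-1/CD40L) to 71.4% (plain DSLB). In replicates of 1 group the members varied widely. The pooled SD within groups was 28.1% of the mean for SCARNA7, 39.3% for RN7SK, 62.8% for RMRP and 77.9% for SNORA57. RMRP and SNORA57 each shared reads with another record, CSKMT for SNORA57, and the part of this in their spread was not tested.

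SCARNA7, a box C/D scaRNA that guides methylation of the U1 small nuclear RNA, had the smallest p of the members in the test for any difference among the 10 groups. Its expected counts in replicates 1 to 3 were 33, 60 and 26 in PD-1/CD2, 52, 29 and 21 in PD-1/CD27, 51, 26 and 16 in PD-1/CD40L and 26, 50 and 36 in PD-1/CTLA4. They were 5, 3 and 2 in PD-1, 2, 5 and 2 in plain DSLB and 1, 1 and 2 in DSLB-free. They were 1, 0 and 0 in PD-1/ICOS, 2, 6 and 6 in PD-1/LAG3 and 2, 5 and 4 in PD-1/TIGIT. On the CPM scale the 12 libraries of the CD2, CD27, CD40L and CTLA4 groups lay between 0.557 and 1.08, and the 18 libraries of the other groups between 0 and 0.133, with no overlap.

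Each PD-1 combination was compared with PD-1 alone, which asks what the second protein adds, by edgeR's quasi-likelihood test over 18424 genes with Benjamini-Hochberg adjustment. SCARNA7 rose 11.0-fold in PD-1/CD2 (log2 fold change 3.46 ± 0.40 SE, adjusted p = 5.12e-05, n = 3 and 3). It rose 10.8-fold in PD-1/CD27 (3.44 ± 0.40, adjusted p = 3.42e-05), 11.4-fold in PD-1/CD40L (3.52 ± 0.41, adjusted p = 4.79e-05) and 11.0-fold in PD-1/CTLA4 (3.46 ± 0.40, adjusted p = 5.38e-05). These 4 comparisons share the 3 PD-1 libraries, so a low count there enters all of them. SCARNA7 had the smallest p of all genes tested in each. In all 6 fits per comparison that left out 1 library of either group the call held, with log2 fold changes between 3.18 and 3.96. SCARNA7 was the 1 member of 15 called in each of the 4. Of all genes, 1.23%, 2.29%, 0.0109% and 0.0434% were called, in the order CD2, CD27, CD40L, CTLA4. As SCARNA7 met the count rule only through these 4 groups, its p values, rank and calls in them are a description.

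The posterior SD of the SCARNA7 count was 0 in every library, so its reads were not split with another record. SCARNA7 lies in an intron of KPNA4, an importin alpha, on the same strand. It overlaps no exon of the 11 KPNA4 transcripts, so this SD does not bear on reads from unspliced KPNA4 RNA. How much of the SCARNA7 count is the processed scaRNA was not tested. KPNA4 stood at 119 to 146 CPM in the 12 libraries where SCARNA7 was high and at 132 to 176 CPM in the other 18, and its log2 fold changes against PD-1 ran from −0.17 ± 0.08 (CTLA4) to −0.04 ± 0.07 (CD2), none past the threshold. Over the 18 libraries of the other 6 groups the mean expected count was 2.72 for SCARNA7, 3.24 for SCARNA9 and 2.67 for SNORD15B. These 3 members met the count rule only through the CD2, CD27, CD40L and CTLA4 groups.

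Levels of other RNAs are given beside SCARNA7, picked after their values were seen. MT-RNR1, the mitochondrial small ribosomal RNA, lay at 1600 to 2164 CPM in those 12 libraries and at 449 to 1234 CPM in the other 18. Against PD-1 it rose in the CD40L, CD27 and CD2 groups (log2 fold change 0.91 ± 0.15, 0.79 ± 0.15 and 0.70 ± 0.15, edgeR adjusted p = 0.0185, 0.00572 and 0.0200), and did not pass in PD-1/CTLA4 (0.72 ± 0.15, 0.0774). MALAT1, a long nuclear RNA, lay at 1270 to 2869 and 895 to 1809 CPM, ranges that overlap. It rose in the CTLA4, CD27 and CD2 groups (log2 fold change 1.23 ± 0.21, 0.90 ± 0.21 and 0.90 ± 0.21, edgeR adjusted p = 0.0226, 0.0227 and 0.0317), and did not pass in PD-1/CD40L (0.88 ± 0.21, 0.103). The part of these RNAs in the SCARNA7 result was not tested. The 64 replication-dependent histone genes, whose mRNAs lack a poly(A) tail, summed to group means of 276 to 288 CPM in the 4 groups and 278 CPM in PD-1, and 0 of the 37 tested were called by edgeR in any of the 4 comparisons. In PD-1 against plain DSLB, edgeR called 8 of the 37 as lower, where it called 22.0% of all genes. MT-RNR1 rose there (log2 fold change 0.53 ± 0.15, edgeR adjusted p = 0.0104), and MALAT1 did not pass (0.19 ± 0.21, 0.539). Per the study's methods each parallel replicate set of cultures held all conditions. No source used here states a batch of library preparation or sequencing, and one that held these 4 groups could not be told apart from the second protein.

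**Figure D2:**
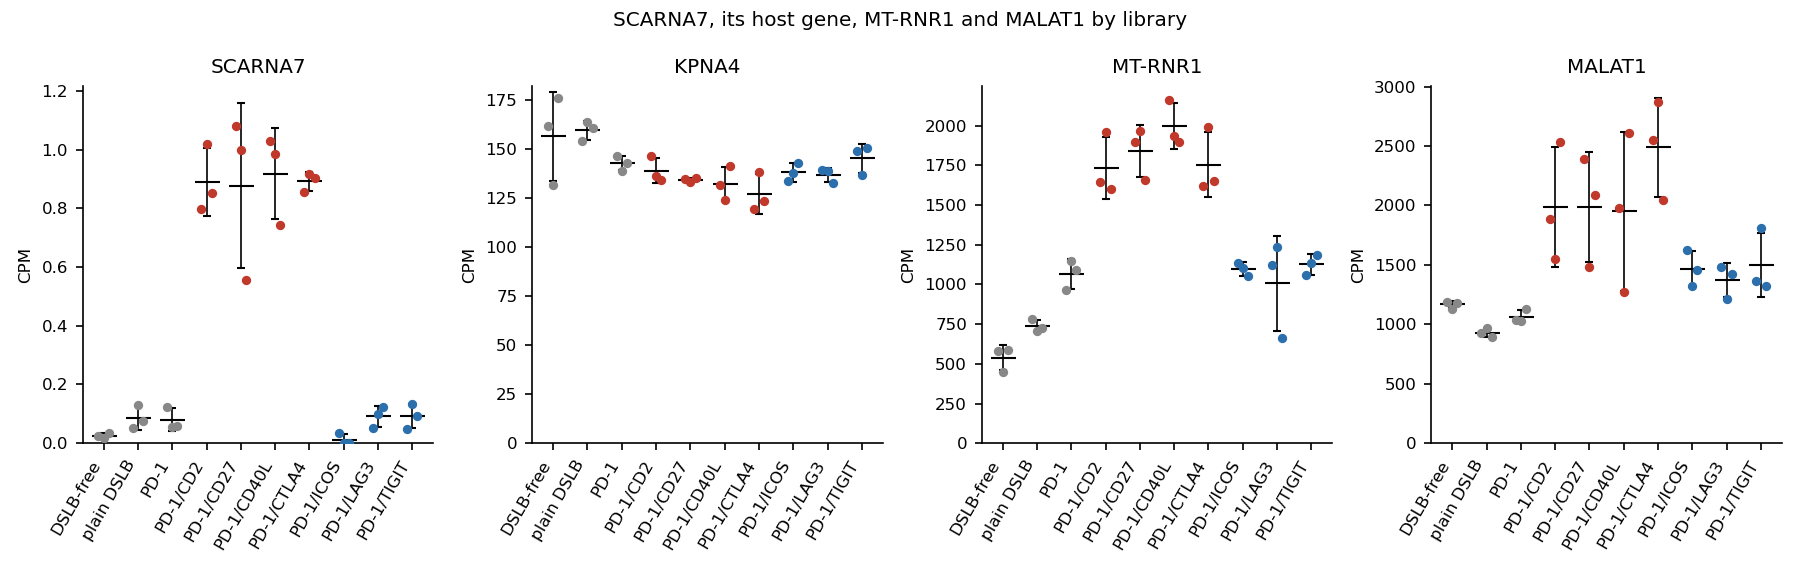
CPM (y axis, from 0) of SCARNA7, its host gene KPNA4, MT-RNR1 and MALAT1 in the 10 groups, with 1 point per library and a bar for the mean ± SD of 3. SCARNA7 lies at 0.557 to 1.08 CPM in the 12 libraries drawn in red and at 0 to 0.133 CPM in the 18 in grey and blue, MT-RNR1 separates the same libraries, and KPNA4 does not.

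SCARNA9 (mgU2-19/30), a guide of the U2 small nuclear RNA, and SNORD15B, a guide of 28S ribosomal RNA, were high in largely the same libraries. SCARNA9 measured 0.187 to 0.467 CPM in the 12 libraries and 0 to 0.212 CPM in the other 18, with 11 of the 12 above all others. Against PD-1 its log2 fold change was 2.14 ± 0.64 (CD2), 2.24 ± 0.63 (CD27), 2.72 ± 0.63 (CD40L) and 2.48 ± 0.62 (CTLA4), with edgeR adjusted p of 0.0911, 0.0562, 0.0853 and 0.131. None passed the threshold of 0.05 in this fit. With no filter on low counts, edgeR called SCARNA9 in CD27 (adjusted p = 0.0263), CD40L (0.00479) and CTLA4 (0.0124), and not in CD2. SNORD15B stood highest in PD-1/CD27, at 0.353, 0.413 and 0.398 CPM, against 0.125, 0.0185 and 0.175 CPM in PD-1, and the 2 groups did not overlap (log2 fold change 1.95 ± 0.61, edgeR adjusted p = 0.0835). Groups that do not overlap in this direction were found for 13.5% of all genes in that comparison. SCARNA9 and SNORD15B met the count rule only through the CD2, CD27, CD40L and CTLA4 groups. Their p values and calls in these groups are therefore a description.

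RMRP shared its reads with an unnamed record that had the same posterior SD in all 30 libraries and was listed at 0 in 22 of them. In plain DSLB replicate 2 all 100 reads went to that record and RMRP was at 0. The sum of both is therefore given, as an alternative chosen after the data were seen. It was 63, 287 and 168 counts in PD-1/CD2, 284, 120 and 138 in PD-1/CD27, 335, 133 and 79 in PD-1/CD40L and 177, 175 and 194 in PD-1/CTLA4. It was 69, 62 and 14 in PD-1, 55, 100 and 12 in plain DSLB, 56, 24 and 14 in DSLB-free, 13, 26 and 11 in PD-1/ICOS, 32, 107 and 31 in PD-1/LAG3 and 21, 65 and 80 in PD-1/TIGIT. The log2 fold change of the sum against PD-1 was 1.83 ± 0.63 (CD2), 2.04 ± 0.63 (CD27), 2.23 ± 0.63 (CD40L) and 2.04 ± 0.63 (CTLA4), with edgeR adjusted p between 0.0870 and 0.211, none past the threshold. With no filter on low counts, edgeR called the RMRP record alone as higher than in PD-1 in CD2, CD27, CD40L and CTLA4. The edgeR adjusted p was 1.22e-05, 8.58e-06, 1.00e-19 and 5.28e-13, in that order. That fit called the record as lower in PD-1/ICOS (8.00e-06). With the filter on low counts, edgeR called the record alone in none of these comparisons. Its adjusted p there was 0.420 (CD2), 0.394 (CD27), 0.250 (CD40L), 0.298 (CTLA4) and 0.534 (ICOS). Why the fits differ was not tested. Against plain DSLB, the RMRP record alone gave a log2 fold change of 2.52 ± 1.00 in PD-1 (edgeR adjusted p = 0.0772), and the sum gave −0.49 ± 0.67.

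**Figure D3:**
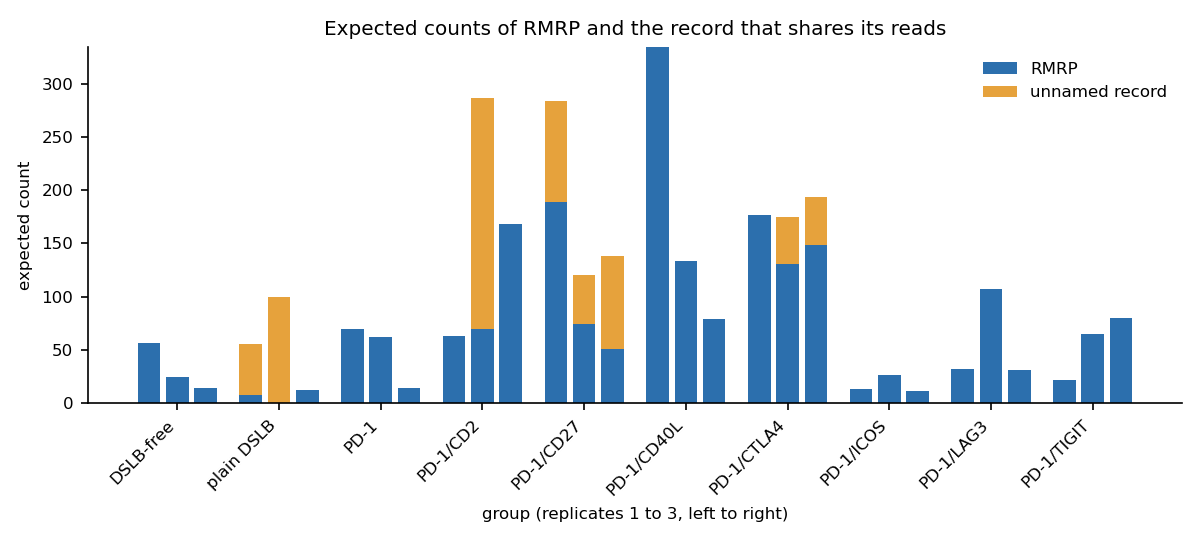
Expected counts (y axis, from 0) of RMRP (blue) and of the unnamed record that shares its reads (orange), stacked, in 30 libraries ordered by group. The split between the records shifts from library to library, as in plain DSLB replicate 2, where RMRP is at 0 and the other record at 100.

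A joint test for any difference among the 10 groups called 6 of the 15 members, SCARNA7 (edgeR adjusted p = 4.59e-12), SCARNA9 (0.000274), SNORD15B (0.000423), RMRP (0.00116), SNORD97 (0.0158) and SNORA52 (0.0247). The same test called 41.0% of all genes. Without SCARNA7, SCARNA9 and SNORD15B, which met the count rule only through the groups where they are high, it called 3 of 12 members. The call of SNORA52 was lost with limma-voom (adjusted p = 0.0625) and in 3 of 30 fits that left out 1 library (adjusted p = 0.0808, 0.0539 and 0.0659 without plain DSLB replicate 1, 2 and 3). SNORD97, a box C/D snoRNA, overlaps an exon in 1 of the 31 EIF4G2 transcripts and shares reads with EIF4G2 in all 30 libraries. It ranged from 0.184 ± 0.0985 CPM (PD-1/TIGIT) to 0.525 ± 0.0426 CPM (PD-1/CD27), SD with n = 3. SNORA52 lies in the ribosomal protein gene RPLP2, in an exon of 1 of its 8 transcripts, and shares reads with it. It was lowest in plain DSLB, with expected counts of 0.04, 0.96 and 0, and highest in DSLB-free, with 14.0, 26.7 and 13.2, so that the groups did not overlap, as for 4.39% of all genes in that direction. That difference had an unadjusted p of 0.000227 and an edgeR adjusted p of 0.286.

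**Figure D4:**
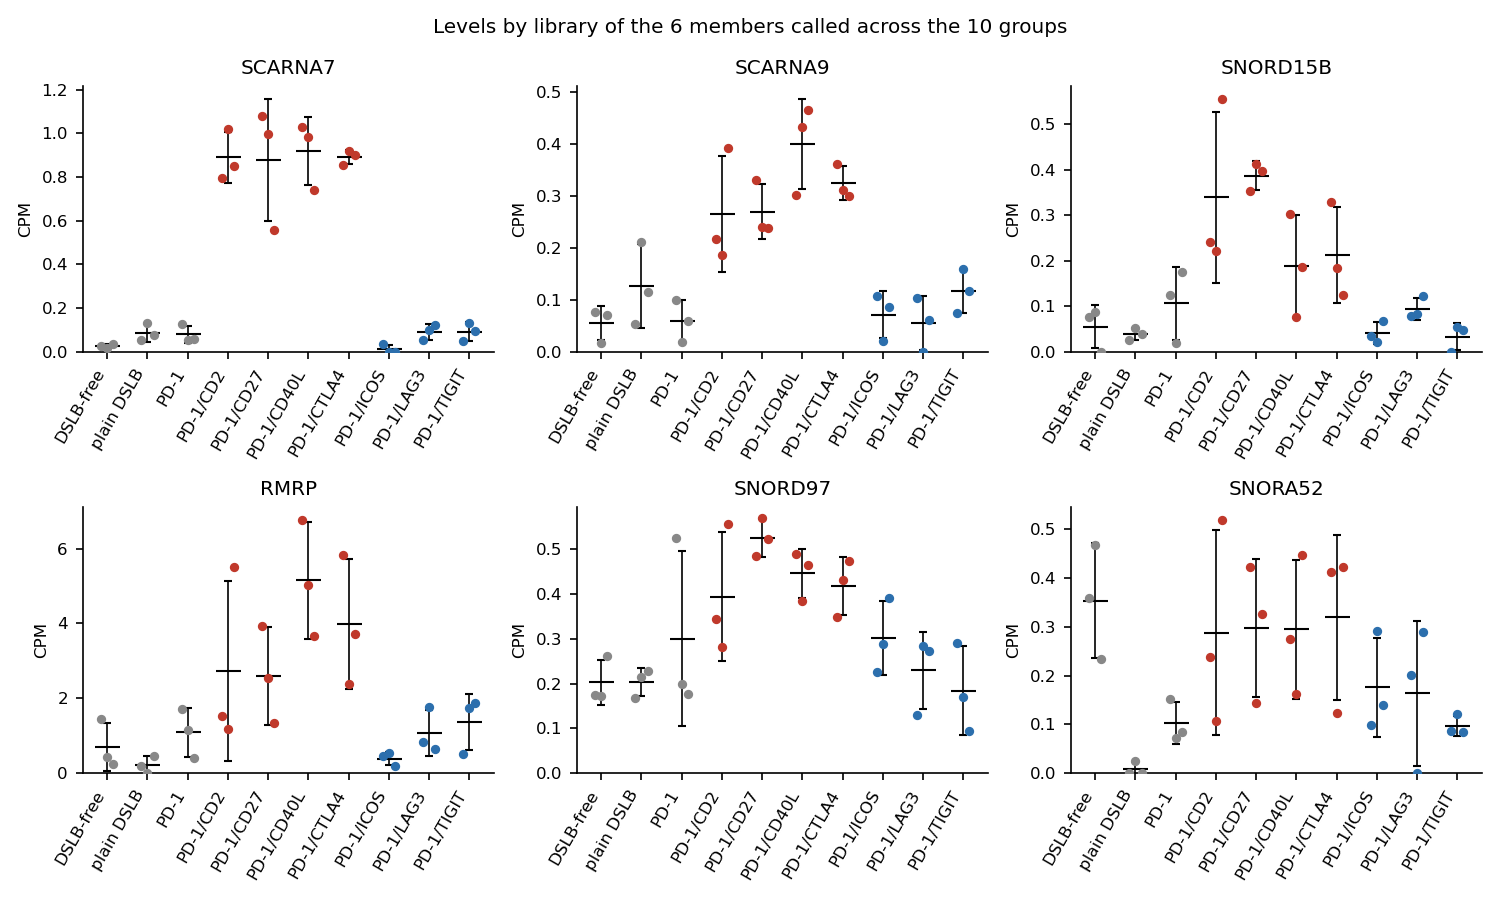
CPM (y axis, from 0) in the 10 groups of the 6 members called in the joint test, 1 point per library with the mean ± SD of 3; RMRP is its own record, without the one that shares its reads. SCARNA7 and SCARNA9 are high in the groups drawn in red, and SNORA52 is near 0 in plain DSLB.

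In the fit of filtered counts, SCARNA7 was the only member called by edgeR against PD-1 in any PD-1 combination. In PD-1/CD27, SNORD15B was also called by limma-voom, and SNORD15B and SNORA73B were called when the libraries of the 2 groups were fitted alone. For SNORD15B, which met the count rule only through groups where it is high, these calls are a description. Members whose every library lay above all PD-1 libraries numbered 7 in PD-1/CD2 (8.13% of all genes), 6 in PD-1/CD27 (13.5%), 6 in PD-1/CD40L (8.91%), 4 in PD-1/CTLA4 (9.20%), 3 in PD-1/LAG3 (6.16%) and 2 in PD-1/TIGIT (6.26%). SNORA33 was the 1 member below all PD-1 libraries in PD-1/CTLA4 (8.58% of all genes). The counts in the first 4 comparisons include SCARNA7 and SCARNA9, and in CD2 and CD27 SNORD15B, which met the count rule only through these groups, so nothing is read from them. With no filter on low counts, over 39960 genes, edgeR called 2 members in PD-1/CD2 (2.07% of all genes), 5 in PD-1/CD27 (3.23%), 3 in PD-1/CD40L (1.20%), 4 in PD-1/CTLA4 (1.75%) and 3 in PD-1/ICOS (1.11%). In that fit it called 5 members in PD-1 against plain DSLB (10.1%), 3 in plain DSLB against DSLB-free (0.498%) and 10 in the joint test (22.4%). SNORA73B measured 0.362 ± 0.134 CPM in PD-1 and 0.894 ± 0.171 CPM in PD-1/CD27 (log2 fold change 1.29 ± 0.39, edgeR adjusted p = 0.0733). SNHG3, a noncoding host of SNORA73B, rose in PD-1/CD2 (log2 fold change 0.85 ± 0.12, edgeR adjusted p = 0.000948), PD-1/CD27 (0.89 ± 0.12, 0.000345) and PD-1/CTLA4 (0.69 ± 0.12, 0.0226), and was 0.58 ± 0.12 (0.0673) in PD-1/CD40L. SCARNA13 (U93), an H/ACA-type guide in the host SNHG10, measured 0.260 ± 0.0171 CPM in PD-1, the lowest of all group means. The 7 combinations share these PD-1 libraries, so a positive log2 fold change of SCARNA13 follows in each, from 0.50 (CD40L) to 1.04 (CD27). The edgeR adjusted p values lay between 0.111 and 1. SCARNA12 (U89) lies in PHB2 on the same strand, in an exon of 4 of its 20 transcripts, and shares reads with PHB2. SCARNA12 ranged from 0.0725 to 0.804 CPM over the 30 libraries. SCARNA2, a box C/D scaRNA, ranged from 0 to 0.511 CPM, with its highest group mean in PD-1/LAG3 (0.332 CPM). Of the other H/ACA members, SNORA57 ranged from 0 to 1.11 CPM and SNORA33 from 0.0328 to 0.334 CPM. SNORA72 and SNORA71B, which did not pass the filter on low counts, ranged from 0.0265 to 0.320 and from 0.0250 to 0.303 CPM. The 4 of these 6 that passed the filter were called in none of the 9 comparisons or the joint test. PD-1/CD2 replicate 3 carried the highest level of its group for RN7SK, RMRP, SNORA73B and SCARNA13, with 17.2 CPM of RN7SK against 5.04 and 6.75 CPM in the other replicates. Such sharing was not limited to that group. Of the 10 groups, the library highest in RN7SK was also highest in RPPH1 and SCARNA13 in 9, and in SNORA73B in 8. For RMRP and SCARNA2 it was 7 groups, and for SCARNA12 and SNORA72 it was 1. Members that move together by library are not separate observations.

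The median log2 fold change of the 15 members was 1.14 (CD2), 1.13 (CD27), 0.61 (CD40L) and 0.95 (CTLA4), and that of all genes was within 0.01 of 0 in each of these. It was −0.11 (ICOS), 0.25 (LAG3) and 0.23 (TIGIT). Since 3 members were kept only through the groups where they were high, and the comparisons share the PD-1 libraries, these medians are a description. Members with an unadjusted p under 0.05 by edgeR numbered 7, 9, 5 and 5 in the first 4 comparisons, all higher. At that level 7.82%, 10.8%, 6.49% and 6.78% of all genes were higher. These counts include SCARNA7 and SCARNA9 in all 4, and SNORD15B in CD2 and CD27. Those members met the count rule only through these groups, so nothing is read from the counts.

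RN7SK was lowest in PD-1/ICOS, at 3.86, 3.97 and 4.06 CPM, below every other library (lowest 5.04 CPM, PD-1/CD2 replicate 1). RPPH1 measured 0.660, 0.371 and 0.205 CPM in PD-1/ICOS against 1.75, 1.71 and 0.787 CPM in PD-1. The log2 fold changes were −1.09 ± 0.45 for RN7SK and −1.90 ± 0.64 for RPPH1, with edgeR adjusted p of 0.420 and 0.388. Neither passed in that fit, although both were called with no filter on low counts (adjusted p = 6.48e-16 and 1.65e-07), and the groups did not overlap, as for 3 members, these and SCARNA7, and 14.0% of all genes in that direction. In PD-1/ICOS, PD-1/LAG3 and PD-1/TIGIT edgeR called 0 of the 15 members and 0% of all genes at the adjusted threshold. At an unadjusted p under 0.05 it gave 1880, 1052 and 681 genes (10.2%, 5.71% and 3.70% of all genes), among them 4, 2 and 2 of the 15 members. DESeq2 and limma-voom also called 0 members in these 3, with 3, 5 and 1 genes by DESeq2 and 0 in each by limma-voom.

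**Figure D5:**
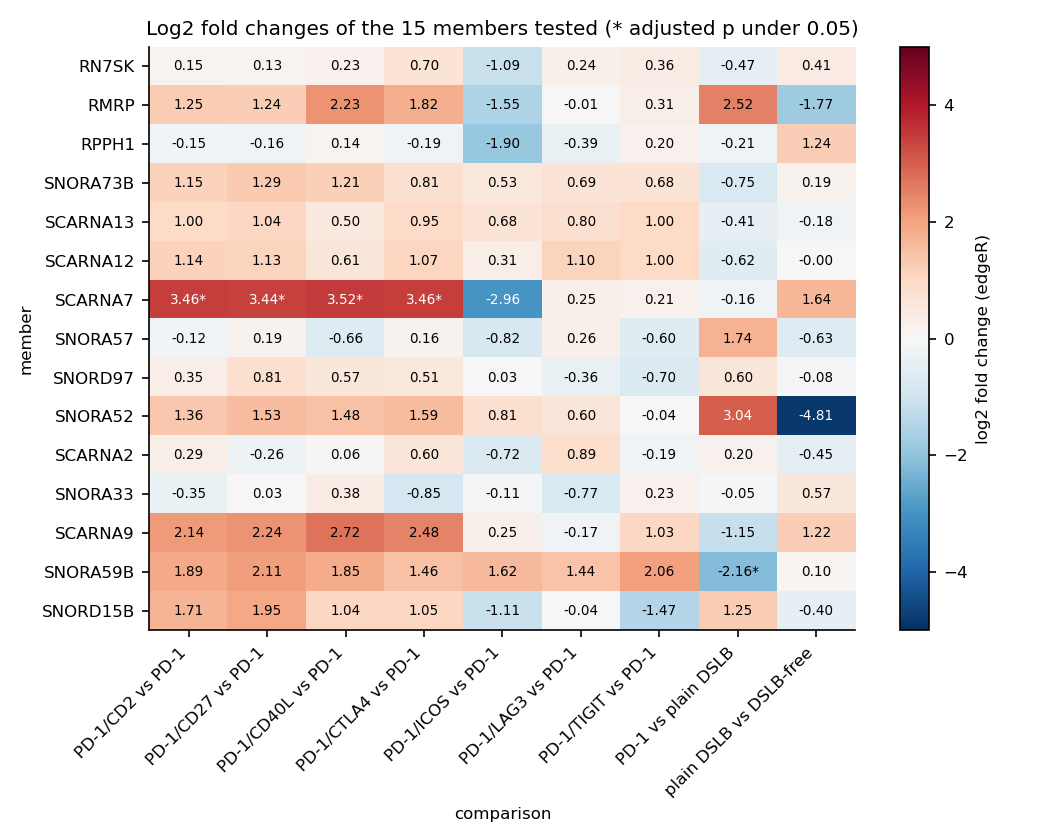
Log2 fold change by edgeR (colour and number) of the 15 members tested (rows) in the 9 comparisons (columns), with an asterisk at an adjusted p under 0.05. SCARNA7 carries the asterisk in the CD2, CD27, CD40L and CTLA4 comparisons and SNORA59B in PD-1 against plain DSLB.

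In PD-1 against plain DSLB, edgeR called 22.0% of all genes. A batch of library preparation or sequencing, which no source used here states, could not be told apart from PD-1 there. Of the 15 members, edgeR called SNORA59B, an H/ACA snoRNA record in an intron of SLC47A1. The SNORA59B record is 701 nt long, against a median of 133 nt for the H/ACA records, and lacks an ACA 3 bases from its end. How much of its count is the processed snoRNA was not tested. It fell by 2.16 on the log2 scale (SE 0.76, edgeR adjusted p = 0.0402), from 0.291, 0.164 and 0.175 CPM in plain DSLB to 0, 0.0918 and 0.0292 CPM in PD-1, which did not overlap, as for 3 members and 23.4% of all genes in that direction. The call was lost in 5 of 6 fits that left out 1 library (adjusted p up to 0.163), without PD-1 replicate 1, PD-1/LAG3 replicate 3 and DSLB-free replicate 2 (0.127), and with the replicate block (0.0509). It was not among the genes kept when the libraries of the 2 groups were fitted alone. The posterior SD of its count was above 0 in 23 libraries. DESeq2 gave SNORA59B no adjusted p and called RMRP, on its record alone, as higher in PD-1 (adjusted p = 0.0228). Plain DSLBs against no DSLBs gave 0 members and 0.0109% of all genes by edgeR. At an unadjusted p under 0.05 it gave 1123 genes (6.10% of all genes), and DESeq2 and limma-voom called 15 and 2 genes with 0 members. The 3 members at that unadjusted level were RPPH1 and SCARNA7, with higher values, and SNORA52, with lower values in plain DSLB.

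Genes for the proteins that work with these RNAs were tested in the same fit. Of 52 tested genes for snoRNP proteins, assembly factors, Cajal body proteins, RNase MRP and RNase P subunits, the 7SK complex and nuclear RNA decay, 22 were called in the joint test (42.3%, against 41.0% of all genes), 1 in PD-1/CD2 (1.92%, against 1.23%) and 2 in PD-1/CD27 (3.85%, against 2.29%). The calls against PD-1 were GEMIN4, a partner of SMN in Cajal bodies, which fell by 0.31 (CD2, edgeR adjusted p = 0.0114) and by 0.27 (CD27, 0.0137) on the log2 scale, and ZCCHC8, a subunit of the nuclear exosome targeting complex, which rose by 0.40 (CD27, 0.0380). In the CD40L, CTLA4, ICOS, LAG3 and TIGIT combinations edgeR called 0, and 7, 7, 6, 3 and 0 of the 52 had an unadjusted p under 0.05, where 11.3%, 13.3%, 10.2%, 5.71% and 3.70% of all genes did. In PD-1 against plain DSLB 9 of the 52 were called, 17.3% against 22.0% of all genes. Higher were NOP10 of the H/ACA snoRNP (log2 fold change 0.38), RPP25 and RPP38 of RNase P and MRP (0.31 and 0.37) and HEXIM2 of the 7SK complex (0.54). Lower were DKC1, the pseudouridine synthase (−0.23), GAR1 (−0.34), the assembly factor ZNHIT6 (−0.48), POP1 (−0.34) and CCNT1 (−0.23).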

How the data were processed

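RNA of 30 PANC-1 cultures was made into directional libraries and read as single 75 nt ends; the authors trimmed reads with Trim Galore 0.3.3, checked them with FastQC 0.11.2, used SAMtools 1.3.1, aligned with STAR to hg38 and counted with RSEM. No source used here states the annotation release, the strand setting, or whether poly(A) RNA was selected or ribosomal RNA removed. Deposited values are expected counts and TPM per gene, with lengths, and a signal of posterior mean and SD of the count. Expected counts were rounded to whole numbers for the test. One edgeR 4.0.16 quasi-likelihood fit (TMM, filterByExpr by group, robust, R 4.3.3) of all 30 libraries kept 18424 genes and 15 of 17 members; SNORA72 and SNORA71B did not pass. The threshold was an adjusted p of 0.05 over all genes, over 9 pairwise comparisons and 1 joint test. Levels are CPM on TMM-scaled libraries. Records were named through the reference tables (56321 of 60483 matched), RN7SK by its position. A posterior SD equal within a 0.05 fraction marked shared reads. DESeq2 1.42.0 and limma 3.58.1 were alternatives. All 3 tools recovered changed genes when tested on simulated data, with the same spread for all genes and changed genes picked from all genes kept. The simulation was not set to the low counts and wide spread of the members, so it says nothing of their recovery. The members and gene lists were chosen with earlier results of these data known. Named were RMRP, RPPH1, RN7SK, each scaRNA, members past a threshold, the most abundant snoRNAs, those beside the cutoff, their hosts, and list genes past the threshold; MT-RNR1, MALAT1 and histone genes were chosen after their values were seen. Same-numbered replicates did not deviate together in the 9 comparisons, so they were not paired. Intervals and SDs cover these cultures only. The sequence of 1 member is not reported here.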

Additional observations from a re-analysis of the deposited data

How the results depend on the processing

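Counts of members called under edgeR's adjusted p of 0.05 were compared with alternatives. SCARNA7 kept its call against PD-1 in every alternative that gave it an adjusted p. With DESeq2 the counts were 0 in PD-1/CD2, PD-1/CD40L and PD-1/CTLA4, where DESeq2 gave SCARNA7 no adjusted p, and SCARNA7 was called in PD-1/CD27. With no filter on low counts the numbers called were 2 (CD2), 5 (CD27), 3 (CD40L), 4 (CTLA4), 3 (ICOS), 5 (PD-1 against plain DSLB), 3 (plain DSLB against DSLB-free) and 10 (joint test), and the cause was not tested. At an adjusted p of 0.1 they were 2 (CD2), 4 (CD27), 2 (CD40L) and 2 (PD-1 against plain DSLB). In PD-1/CD27 limma-voom called 2 and the libraries of the 2 groups alone 3. The counts in CD2, CD27 and CD40L include SCARNA7, SCARNA9 or SNORD15B, which met the count rule only through groups where they are high. No share of all genes is given beside the counts at 0.1, by limma-voom or in the 2 groups alone. Nothing is therefore read from these counts. In PD-1 against plain DSLB the count was 0 with the replicate block, with the libraries of the 2 groups alone and without the 3 libraries that stood apart, and 0 to 1 when 1 library was left out. DESeq2 called 1 there, RMRP (higher), and gave SNORA59B no adjusted p. The replicate block changed no other call, and the replicate number gave correlations of deviations between −0.13 and 0.13. Summing RMRP with the record that shares its reads, chosen after seeing the data, turned its log2 fold change in PD-1 against plain DSLB from 2.52 to −0.49. RMRP alone had 7.43, 0 and 12 counts and the other record 47.57, 100 and 0 in the 3 plain DSLB libraries, and leaving out any 1 library kept the RMRP value between 1.87 and 3.55. A mean below 20 counts per library limits 13 of the 17 members.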
